A study of Mus musculus with 18 samples.

Results

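CC chemokines are small secreted proteins that draw leukocytes along a gradient by binding G protein-coupled receptors. The set described here holds 10 of their genes, Ccl2, Ccl3, Ccl4, Ccl5, Ccl6, Ccl7, Ccl9, Ccl12, Ccl22 and Ccl24, matched by gene symbol. All 10 had a row among the 23052 genes of each of 2 count tables from mouse bone marrow-derived macrophages. In the table of endotoxin-tolerant cells 9 of the 10 passed the filter on low counts and were tested, and in the table of stimulated cells all 10 were.

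Wild-type C57BL6/J bone marrow cells were grown for 7 days in 20% L929-conditioned medium and 80% DMEM, which gives macrophages. The first table holds 12 libraries, all labelled endotoxin-tolerant: cells without glutamine given α-ketoglutarate (AKG), cells without glutamine, and cells with glutamine, with 4 libraries each. The second holds cells stimulated for 6 h with interleukin-4 (IL-4), cells stimulated for 6 h with lipopolysaccharide (LPS, also called endotoxin) and untreated control cells, with 2 libraries each. The labels give no dose, no schedule for inducing tolerance and no form of AKG, and do not say whether replicates came from separate mice or cultures, so the p-values measure only the spread between these libraries. No library in the first table is labelled as non-tolerant, and the tables were scaled separately, so tolerance itself was not tested.

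Macrophages are a main source of these proteins at sites of inflammation. Ccl2, Ccl7 and the mouse gene Ccl12 encode ligands of Ccr2, which brings monocytes out of the bone marrow and into tissue. Ccl3, Ccl4 and Ccl5 draw monocytes and T cells, and Ccl3 and Ccl5 act on Ccr1, as do the rodent chemokines Ccl6 and Ccl9. Ccl22 binds Ccr4 on T cells, and Ccl24 binds Ccr3 on eosinophils. LPS signals through Toll-like receptor 4 to NF-κB and interferon-regulatory factors, IL-4 signals through STAT6, and endotoxin-tolerant macrophages are cells whose inflammatory response to renewed endotoxin is dampened. AKG is an intermediate of the tricarboxylic acid cycle that cells can make from glutamine, and the study asked how glutamine metabolism changes the transcriptome of tolerant macrophages.

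Libraries held 28302158 to 37834680 counts in the tolerant table and 34227368 to 39760356 counts in the stimulation table. Together the 10 genes took 0.134 to 0.282% of counts with AKG, 0.107 to 0.240% without glutamine, 0.154 to 0.195% with glutamine, 0.151 to 0.158% with IL-4, 0.605 to 0.681% with LPS and 0.0996 to 0.102% in untreated cells. The 11 macrophage marker genes summed to between 27642 and 48034 CPM (TMM-normalised counts, scaled to a common library size) in every library. Much of that sum was Lyz2, which averaged from 15177 CPM with IL-4 to 24319 CPM in tolerant cells without glutamine. All 4 LPS-responsive check genes rose with LPS and all 4 IL-4-responsive check genes rose with IL-4. In the tolerant table replicates 1 and 2 stood apart from replicates 3 and 4 within each group, and the labels do not say what these numbers mark. In bulk RNA, fewer cells of a type and less RNA per cell cannot be told apart.

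LPS raised every gene of the set. Against untreated cells, 10 of 10 were higher by edgeR's quasi-likelihood test (Benjamini-Hochberg adjusted p under 0.05), in a comparison where 22.8% of all genes tested were called higher. The median log2 fold change of the set was 3.40, beside -0.10 for all genes. IL-4 raised 6 of 10, namely Ccl2, Ccl4, Ccl7, Ccl9, Ccl12 and Ccl24, where 9.64% of all genes were called higher. The set's median was 1.14 and that of all genes -0.039. Set directly against LPS, IL-4 left 8 of the 10 lower, where 23.4% of genes were called lower, and 1 higher, Ccl24, where 29.7% were called higher. These 3 comparisons share groups, so their counts are not independent of each other.

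**Figure D1:**
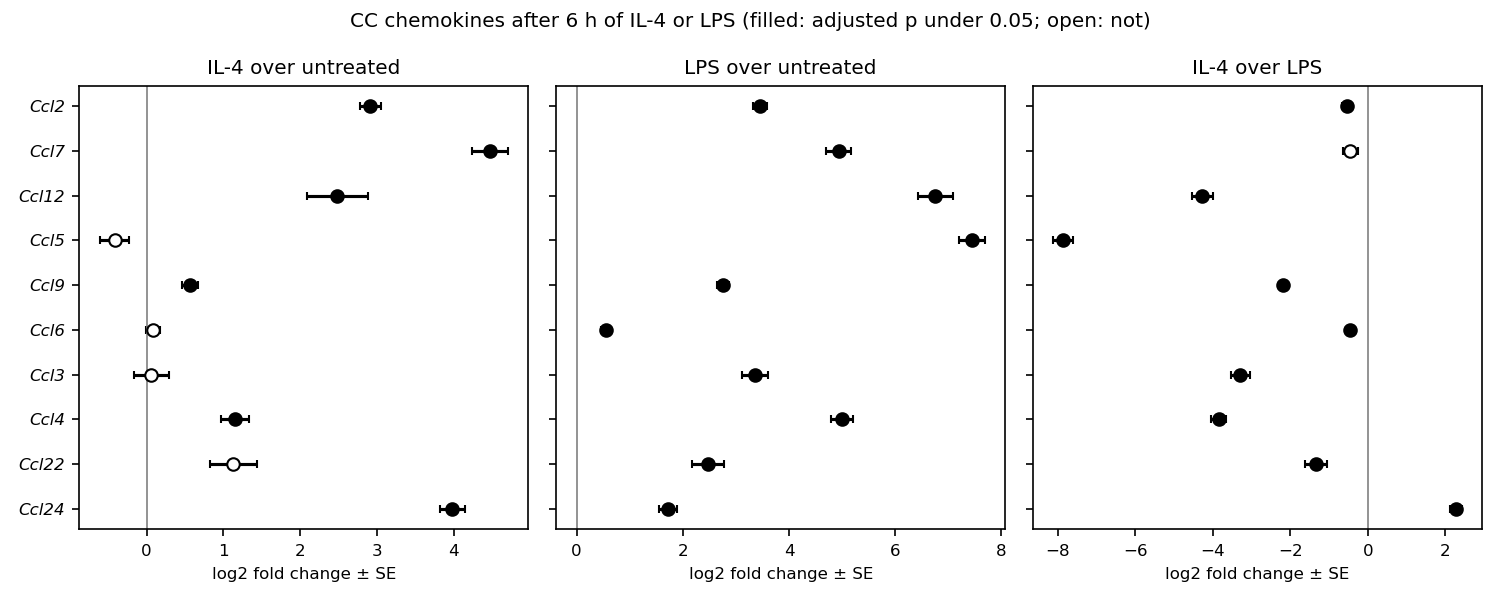
Log2 fold changes of the 10 genes with their standard errors for IL-4 over untreated cells, LPS over untreated cells and IL-4 over LPS (2 libraries a group); filled points passed the adjusted p of 0.05 and open points did not. LPS values run from 0.55 (Ccl6) to 7.44 (Ccl5), and Ccl24 is the one gene to the right of 0 in the last panel.

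Among the Ccr2 ligands, Ccl2 had 26.3 and 27.0 CPM in the IL-4 libraries, 42.1 and 35.2 CPM in the LPS libraries and 3.41 and 3.66 CPM in the untreated ones. Ccl7 had 44.7 and 43.0 CPM with IL-4, 71.5 and 49.0 CPM with LPS and 1.80 and 2.13 CPM untreated. Both genes were thus raised by either stimulus, with no overlap between stimulated and untreated libraries. With IL-4 the log2 fold change over untreated cells was 2.92 ± 0.13 (SE, adjusted p = 2.47e-04 by edgeR) for Ccl2 and 4.48 ± 0.23 (adjusted p = 3.57e-04) for Ccl7. With LPS it was 3.45 ± 0.14 (adjusted p = 4.32e-05) for Ccl2 and 4.93 ± 0.24 (adjusted p = 6.28e-05) for Ccl7.

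Both IL-4 libraries lay below both LPS libraries for these 2 genes. Between the stimuli Ccl2 differed by -0.53 ± 0.12 on the log2 scale (IL-4 over LPS, adjusted p = 0.0129 by edgeR), and that call was lost without LPS replicate 1 (-0.40, adjusted p = 0.0732) and without either IL-4 library. Ccl7 differed by -0.46 ± 0.19 and did not pass (adjusted p = 0.0976), although without LPS replicate 2 it did (-0.71, adjusted p = 0.0219). When libraries were scaled by their totals alone, Ccl2 differed by -0.053 and Ccl7 by 0.026, both without passing.

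Ccl12, the remaining Ccr2 ligand, was near the floor of detection in untreated cells. It had 32 and 24 counts with IL-4, 436 and 321 counts with LPS and 5 and 5 counts in untreated cells, which came to 0.830 and 0.538 CPM with IL-4, 15.2 and 11.2 CPM with LPS and 0.1199 and 0.117 CPM in untreated cells. LPS raised it 108-fold (6.76 ± 0.33 on the log2 scale, adjusted p = 7.00e-05 by edgeR) and IL-4 5.59-fold (2.48 ± 0.39, adjusted p = 0.00941). Between the stimuli it differed by -4.27 ± 0.27 (IL-4 over LPS, adjusted p = 1.04e-04).

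Ccl3, Ccl4 and Ccl5, which draw monocytes and T cells, all rose with LPS, and 1 of the 3, Ccl4, rose with IL-4. Ccl5 had 7.86 and 8.56 CPM with IL-4, 2221 and 1596 CPM with LPS and 11.97 and 9.97 CPM in untreated cells. With IL-4 both libraries lay below both untreated ones, and with LPS both lay far above. The 174-fold rise with LPS was the largest of the set (7.44 ± 0.24 on the log2 scale, adjusted p = 3.92e-05 by edgeR). The difference of -0.42 ± 0.19 with IL-4 did not pass (adjusted p = 0.204). IL-4 over LPS was -7.86 ± 0.25 (adjusted p = 1.85e-05).

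Ccl4 had 27.9 and 29.4 CPM with IL-4, 485 and 339.7 CPM with LPS and 12.6 and 13.2 CPM untreated. Ccl3, its neighbour on chromosome 11, had 28.2 and 30.1 CPM with IL-4, 323 and 247 CPM with LPS and 22.4 and 33.4 CPM untreated. LPS raised Ccl4 31.9-fold (adjusted p = 4.74e-05 by edgeR) and Ccl3 10.2-fold (adjusted p = 2.01e-04). IL-4 raised Ccl4 by 1.15 ± 0.18 on the log2 scale (adjusted p = 0.00948), while the IL-4 and untreated libraries overlapped for Ccl3 (0.060 ± 0.23, adjusted p = 0.906). The call of Ccl4 with IL-4 was lost without either IL-4 library (1.18, adjusted p = 0.0556, without replicate 1, and 1.11, adjusted p = 0.0659, without replicate 2). IL-4 over LPS was -3.85 ± 0.20 for Ccl4 (adjusted p = 5.66e-05) and -3.29 ± 0.24 for Ccl3 (adjusted p = 1.81e-04).

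The rodent Ccr1 ligands Ccl9 and Ccl6 were already abundant in untreated cells, and LPS raised both, Ccl9 by more. Ccl9 had 1085 and 1153 CPM with IL-4, 5301 and 4930.4 CPM with LPS and 742 and 772 CPM untreated. Ccl6 had 99.996 and 101 CPM with IL-4, 137 and 141 CPM with LPS and 96.2 and 93.9 CPM untreated. LPS raised Ccl9 by 2.76 ± 0.11 (adjusted p = 4.18e-05 by edgeR) and Ccl6 by 0.55 ± 0.089 (adjusted p = 0.00369) on the log2 scale.

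Ccl6 was the smallest of the 10 responses to LPS. With libraries scaled by their totals alone its change was 0.094 and no longer passed (adjusted p = 0.415). The same scaling moved the median of all genes to -0.55, beside -0.10 with TMM scaling, and the share of called genes that were higher to 20.0%, beside 43.7%. Between IL-4 and LPS it moved that median to 0.58, beside 0.10, and that share to 79.6%, beside 55.9%. IL-4 raised Ccl9 by 0.56 ± 0.10 (adjusted p = 0.0145 by edgeR), a call lost without either IL-4 library (adjusted p = 0.0864 without replicate 1 and 0.127 without replicate 2), and Ccl6 differed by 0.083 ± 0.089 (adjusted p = 0.597). IL-4 over LPS was -2.19 ± 0.11 for Ccl9 (adjusted p = 4.74e-05) and -0.46 ± 0.089 for Ccl6 (adjusted p = 0.00665), the second lost without either IL-4 library and turned to 0.015 with library totals.

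Ccl24 was the gene that IL-4 raised above its level with LPS. It had 15.2 and 15.6 CPM with IL-4, 3.58 and 2.83 CPM with LPS and 0.984 and 0.961 CPM in untreated cells, with no overlap between any of the groups. IL-4 raised it 15.8-fold over untreated cells (3.98 ± 0.17 on the log2 scale, adjusted p = 2.20e-04 by edgeR) and LPS 3.29-fold (1.72 ± 0.17, adjusted p = 5.50e-04). IL-4 over LPS was 2.27 ± 0.15 (adjusted p = 1.31e-04).

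Ccl22 was lower in abundance. It had 1.71 and 2.17 CPM with IL-4, 6.16 and 3.70 CPM with LPS and 0.912 and 0.868 CPM untreated. LPS raised it by 2.47 ± 0.30 on the log2 scale (adjusted p = 0.00125 by edgeR). Both IL-4 libraries lay above both untreated ones, and the difference of 1.13 ± 0.30 just missed the threshold (adjusted p = 0.0532) but passed in DESeq2 (adjusted p = 0.0306). IL-4 over LPS was -1.34 ± 0.28 (adjusted p = 0.00942), a call lost without IL-4 replicate 1 (-1.18, adjusted p = 0.0626).

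Of 11 macrophage markers, LPS raised 6 and lowered 1, Mertk (-2.76 on the log2 scale), where 22.8% and 29.4% of all genes were called higher and lower. IL-4 raised 1 and lowered 3, Cd14 (-2.18), Fcgr1 (-1.23) and Lyz2 (-0.65), where 9.64% and 10.5% were. Markers of other cell types summed to low levels in the stimulation table, and some of them changed beside the chemokines. The 6 dendritic cell markers summed to 6.41 to 7.16 CPM with IL-4, 4.82 to 5.32 CPM with LPS and 0.936 to 1.01 CPM untreated, with Clec9a, Cd209a and Siglech at 10 counts or fewer throughout. Of 3 tested, IL-4 raised Zbtb46 (4.07 on the log2 scale, adjusted p = 4.03e-04 by edgeR) and Flt3 (3.19, adjusted p = 0.00180), but not Xcr1 (-0.46). LPS raised Xcr1 (3.77, adjusted p = 8.51e-05 by edgeR), while Flt3 (-1.39) and Zbtb46 (-0.0014) did not pass. The 7 neutrophil markers summed to 2.40 to 2.44 CPM with IL-4, 14.2 to 18.9 CPM with LPS and 3.63 to 4.32 CPM untreated, with Ly6g and Elane at 10 counts or fewer. Of 4 tested, LPS raised Camp (4.53, adjusted p = 0.00229 by edgeR) and S100a8 (3.07, adjusted p = 2.36e-04), but not S100a9 (0.18) or Ngp (0.17). IL-4 lowered S100a8 (-1.27, adjusted p = 0.0244 by edgeR), and the other tested neutrophil markers did not pass. The 8 stromal markers summed to 68.3 to 76.9 CPM with IL-4, 91.3 to 109 CPM with LPS and 98.0 to 102 CPM untreated, and of 6 tested LPS raised Pdgfrb (1.15, adjusted p = 0.00410 by edgeR). The 6 lymphocyte, 5 mast cell and 4 eosinophil markers each stayed at or below 4.04 CPM in sum. The eosinophil marker Siglecf was higher with LPS (2.14, adjusted p = 0.00102 by edgeR) and with IL-4 (1.10, adjusted p = 0.0322). Their part in the chemokine changes was not tested.

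Of the 10 genes, 8 lie on chromosome 11 in 2 groups (GENCODE vM21, GRCm38). The first runs along the plus strand as Ccl2 (82035571 to 82037453), Ccl7 (82045712 to 82047525) and Ccl12 (82101845 to 82103400), with Ccl11 between Ccl7 and Ccl12 and Ccl8 11.8 kb beyond Ccl12. The other holds Ccl5 (83525778 to 83530518), Ccl9 (83572919 to 83578636), Ccl6 (83587882 to 83593087) and Ccl3 (83647844 to 83649355) on the minus strand and Ccl4 (83662584 to 83664683) on the plus strand. Ccl22 lies on chromosome 8 (94745590 to 94751699) and Ccl24 on chromosome 5 (135569937 to 135573049). Neighbours had different fold changes: Ccl9 and Ccl6, 9.25 kb apart, rose 6.76-fold and 1.46-fold with LPS. Each of the 10 genes was compared with the other genes of the family, 23 in all. Only Ccl6 and Ccl9 shared a stretch of 25 bases in their exons, and no pair compared shared 50 bases. Pairs among the other family genes were not compared. Ccl2 and Ccl6 overlap a gene on the other strand, and the sources used here do not state how strand was counted. The partner of Ccl6, E230016K23Rik, had 8 to 27 counts a library, and that of Ccl2, Gm17268, was not analysed here.

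RefSeq promoter sequence (GRCm38.p6, 250 bases before the start, 5′ to 3′ on the gene's strand) was at hand for 5 of the 10 genes, Ccl3, Ccl6, Ccl9, Ccl12 and Ccl22. Shown are the neighbours with different fold changes with LPS and the Ccr2 ligand with the widest range of levels, with motif matches in capitals.
Ccl9 (chr11:83578637-83578886, minus strand): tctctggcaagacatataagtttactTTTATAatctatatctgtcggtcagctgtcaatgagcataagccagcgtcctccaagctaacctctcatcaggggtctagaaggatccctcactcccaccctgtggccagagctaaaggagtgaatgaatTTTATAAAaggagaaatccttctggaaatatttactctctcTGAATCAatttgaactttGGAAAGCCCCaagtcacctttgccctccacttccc
Ccl6 (chr11:83593088-83593337, minus strand): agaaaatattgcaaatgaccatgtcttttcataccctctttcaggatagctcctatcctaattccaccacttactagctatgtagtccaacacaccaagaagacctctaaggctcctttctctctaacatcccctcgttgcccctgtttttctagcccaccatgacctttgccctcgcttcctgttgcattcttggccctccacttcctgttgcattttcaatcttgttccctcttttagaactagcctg
Ccl12 (chr11:82101595-82101844, plus strand): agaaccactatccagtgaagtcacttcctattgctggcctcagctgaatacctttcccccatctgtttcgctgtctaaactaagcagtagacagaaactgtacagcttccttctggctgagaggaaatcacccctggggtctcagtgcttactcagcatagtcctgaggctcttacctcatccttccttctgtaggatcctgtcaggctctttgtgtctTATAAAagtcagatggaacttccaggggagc
Both strands were searched for the NF-κB consensus, the interferon response element (GAAA, any 2 bases, GAAA) and the STAT spacings (TTC and GAA with any 3 or 4 bases between). Also searched were the AP-1-like pattern TGANTCA, where N is any base, and the TATA box TATAAA. The Ccl9 window held an NF-κB consensus match at -35 to -26 and 3 TATA matches, of which 2 overlap. It also held an AP-1-like match at -53 to -47, with A as the middle base. The Ccl12 window held a TATA box at -31 to -26, and the Ccl6, Ccl3 and Ccl22 windows held none of the 6 motifs. The windows follow RefSeq starts, which differ from the GENCODE ones for Ccl22 and Ccl3. The Ccl22 window (94745434 to 94745683) runs past the GENCODE start at 94745590. The Ccl3 window begins at 83649379, upstream of the GENCODE start at 83649355. Among 32851 promoters of the same length, 3.90% held the NF-κB consensus, 6.75% the AP-1-like pattern, 12.4% the TATA box, 2.98% the interferon element, and 7.02% and 5.85% the shorter and longer STAT spacing. A match describes letters in this window and no match says only that they are not there.

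**Figure D2:**
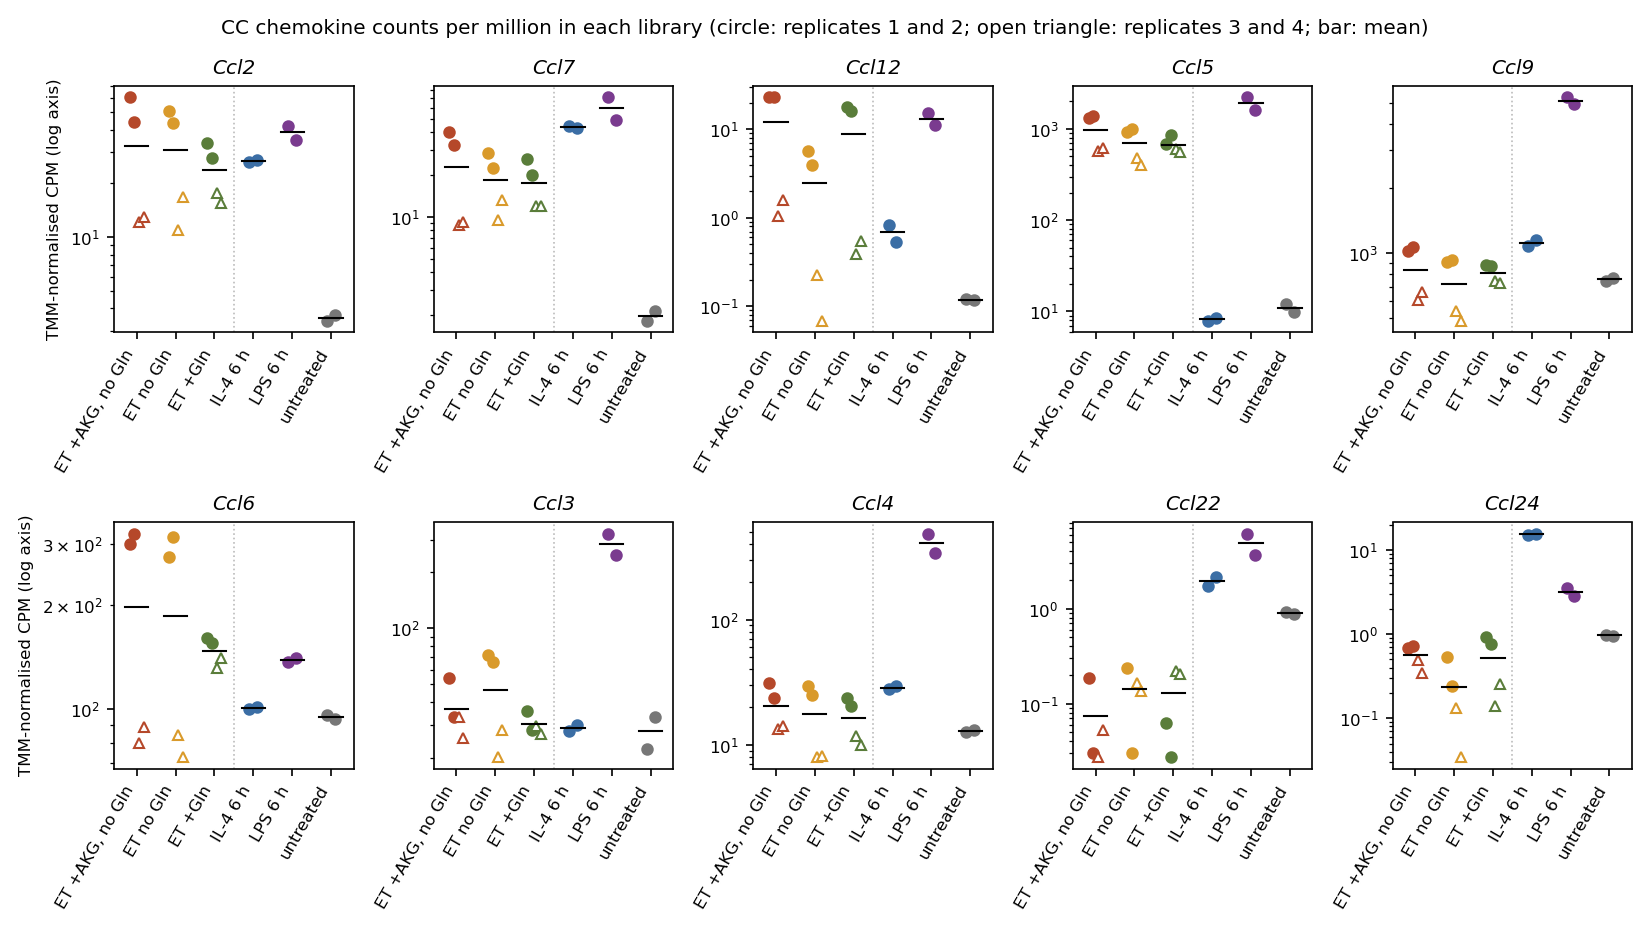
TMM-normalised CPM (log axis) of each gene in each of 18 libraries, with filled circles for replicates 1 and 2, open triangles for replicates 3 and 4 of the tolerant table and a bar at the group mean; the dotted line parts the 2 tables. Replicates 3 and 4 lie below replicates 1 and 2 without overlap for 7 of the 10 genes, and the LPS libraries lie above the untreated ones for all 10.

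In tolerant macrophages none of the 9 genes tested passed in any of the 3 comparisons by edgeR over all 4 replicates. Without glutamine against with glutamine, 4.78% of all genes were called. For AKG against no glutamine 1.54% were called, and for AKG against glutamine 0% were (919 genes at an unadjusted p under 0.05, and 236 called by DESeq2). None of the 9 reached even an unadjusted p of 0.05 in any of these comparisons, and DESeq2 called none. The medians of the 9 log2 fold changes were 0.075, 0.23 and 0.38 in the same order, beside -0.012, 0.0062 and -0.0019 for all genes. The comparisons share groups with each other.

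Much of the spread lay between the replicate numbers. For all 9 the mean of replicates 3 and 4 lay below that of replicates 1 and 2, with a difference of -0.61 on the log2 scale for Ccl9, -1.57 for Ccl2 and -4.60 for Ccl12. A fit blocked on replicate number takes out that difference, and in it Ccl12 changed in 2 comparisons and no other gene of the set did in any. It was then lower without glutamine, as 1 of 9, where 13.1% of all genes were called lower. It was higher with AKG than without glutamine, again as 1 of 9, where 8.5% were called higher. As counts of the set, both are near the share over all genes. No gene of the 9 passed with the block for AKG against glutamine, where 7.08% of all genes were called.

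Ccl12 had 23.1, 23.1, 1.06 and 1.58 CPM with AKG, 5.65, 3.98, 0.229 and 0.0683 CPM without glutamine and 18.2, 16.1, 0.387 and 0.542 CPM with glutamine in replicates 1 to 4. Within each replicate number the library without glutamine was the lowest of the 3 and the library with AKG the highest. The counts behind these values were 750, 764, 39 and 60 with AKG, 169, 133, 7 and 2 without glutamine and 583, 592, 14 and 21 with glutamine, so replicates 3 and 4 rest on few reads. The log2 fold change without against with glutamine was -1.82 ± 1.48 (adjusted p = 0.605 by edgeR) over all replicates and -1.75 ± 0.25 (adjusted p = 0.00118) with the block. It was -1.84 within replicates 1 and 2 (adjusted p = 6.39e-05) and -1.59 within replicates 3 and 4 (adjusted p = 0.146). AKG against no glutamine gave 2.29 ± 1.495 (adjusted p = 0.599) and 2.48 ± 0.25 (adjusted p = 5.85e-04) with the block. AKG against glutamine gave 0.73 ± 0.22 with the block (adjusted p = 0.0897).

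Stromal markers changed in the same comparisons as Ccl12. The 8 stromal markers summed to 75.4 to 275 CPM with AKG, 37.5 to 160 CPM without glutamine and 287 to 1537 CPM with glutamine, and none of the 8 stayed at 10 counts or fewer. Of 6 tested, 3 were lower without against with glutamine over all replicates and 6 with the block, and with the block 4 were higher with AKG than without glutamine and 5 were lower with AKG than with glutamine. In that last comparison Col1a1 was at -2.75 with the block (adjusted p = 1.41e-04 by edgeR), against 0.73 for Ccl12, which did not pass. Between replicates they went the other way from Ccl12, since replicates 3 and 4 had the higher sums in each group. With the block 2 of 11 macrophage markers were lower without against with glutamine, near the 13.1% of all genes, and 3 were higher with AKG than without glutamine, where 8.5% of all genes were. Markers of dendritic cells, neutrophils, mast cells, eosinophils and lymphocytes each summed to at most 7.12 CPM in any tolerant library. The part of any of these in the Ccl12 difference was not tested.

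Within replicates 1 and 2 alone, with 2 libraries a group, more of the set was called. Without against with glutamine 6 of 9 passed, where 28.8% of all genes did: Ccl3 (1.10, adjusted p = 0.00358 by edgeR), Ccl6 (0.89, adjusted p = 8.50e-05), Ccl2 (0.62, adjusted p = 0.0145) and Ccl5 (0.32, adjusted p = 0.0314) were higher, and Ccl12 (-1.84, adjusted p = 6.39e-05) and Ccl24 (-1.15, adjusted p = 0.0471) lower, on the log2 scale. For AKG against no glutamine 5 of 9 passed, where 23.5% of all genes did: Ccl12 (2.27), Ccl7 (0.53), Ccl5 (0.50) and Ccl9 (0.18) were higher and Ccl3 (-0.65) lower. For AKG against glutamine 5 of 9 passed, all higher, where 11.6% of all genes did: Ccl6 (0.97), Ccl5 (0.82), Ccl2 (0.77), Ccl7 (0.67) and Ccl9 (0.25).

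Within replicates 3 and 4 alone the calls were fewer and most were of other genes or directions. Without against with glutamine 2 of 9 passed, where 13.1% of all genes did, and both were lower: Ccl6 (-0.77, adjusted p = 0.00829 by edgeR) and Ccl9 (-0.50, adjusted p = 0.0158). With AKG against without glutamine 2 of 9 passed, where 5.09% did, and both were higher: Ccl12 (3.11, adjusted p = 0.0284) and Ccl4 (0.77, adjusted p = 0.0259). With AKG against with glutamine 1 of 9 passed, where 6.18% did, and Ccl6 was lower (-0.65, adjusted p = 0.0249). Ccl12 with AKG against without glutamine was the call that both subsets of the replicates shared in direction.

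**Figure D3:**
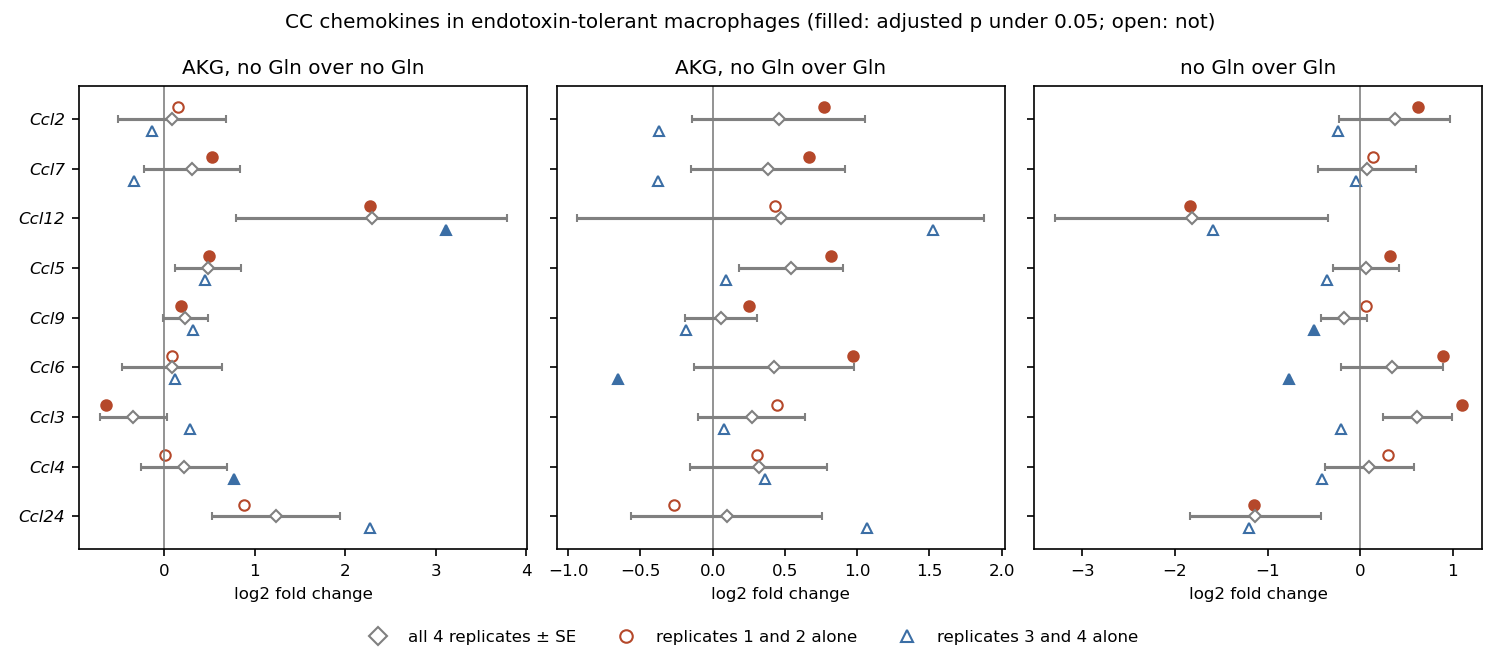
Log2 fold changes of the 9 tested genes in tolerant macrophages for 3 comparisons, over all 4 replicates (grey diamonds with SE), within replicates 1 and 2 (circles) and within replicates 3 and 4 (triangles); filled points passed an adjusted p of 0.05. No diamond is filled, Ccl12 lies to the right of 0 for both subsets with AKG against without glutamine and to the left for both without against with glutamine, and Ccl6 lies on opposite sides of 0 against glutamine.

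The response of Ccl6 differed between the subsets. It had 299, 321, 80.1 and 88.9 CPM with AKG, 274, 313, 84.4 and 72.6 CPM without glutamine and 161, 155, 131 and 140.2 CPM with glutamine. In replicates 1 and 2 both groups without glutamine lay above the libraries with it, and in replicates 3 and 4 both lay below. The effect in replicates 3 and 4 minus that in replicates 1 and 2 was -1.68 ± 0.14 on the log2 scale without against with glutamine (adjusted p = 0.00230 by edgeR) and -1.66 ± 0.14 with AKG against with glutamine (adjusted p = 0.00113). Between AKG and no glutamine it was 0.028 ± 0.14 (adjusted p = 0.966).

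Ccl9 differed likewise without against with glutamine, by -0.60 ± 0.10 (adjusted p = 0.0212 by edgeR). It had 1026, 1071, 605 and 664 CPM with AKG, 913, 936, 538 and 486 CPM without glutamine and 887, 872, 743 and 732 CPM with glutamine. Of the 9 genes, 2 passed this test of a difference for glutamine withdrawal, where 2.35% of all genes did, none passed for AKG against no glutamine (lowest adjusted p = 0.401), where 0.0389% did, and 1 passed for AKG against with glutamine, where 1.5% did.

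Ccl5, the most abundant of the set per length of transcript in tolerant cells, had 1312, 1395, 574 and 624 CPM with AKG, 928, 990.1, 475 and 406 CPM without glutamine and 689, 845, 595 and 551 CPM with glutamine. In 4 of 4 replicate numbers the library with AKG was above that without glutamine, and the log2 difference of 0.48 ± 0.36 did not pass over all replicates (adjusted p = 0.667 by edgeR) or with the block (0.47 ± 0.15, adjusted p = 0.0697). Ccl3 had 54.3, 33.5, 33.1 and 25.8 CPM with AKG, 72.0, 65.8, 20.2 and 28.3 CPM without glutamine and 35.9, 28.5, 30.0 and 27.2 CPM with glutamine. Its highest libraries were replicates 1 and 2 without glutamine.

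Ccl2 had 60.8, 44.3, 12.2 and 13.1 CPM with AKG, 51.2, 43.8, 11.01 and 16.8 CPM without glutamine and 33.7, 27.9, 17.7 and 15.6 CPM with glutamine, with replicates 1 and 2 the higher in every group. Ccl7 had 40.2, 32.8, 8.69 and 9.20 CPM with AKG, 28.6, 22.2, 9.54 and 13.1 CPM without glutamine and 26.0, 19.9, 11.9 and 11.9 CPM with glutamine. Ccl4 had 31.0, 23.7, 13.3 and 14.2 CPM with AKG, 29.4, 25.1, 7.94 and 8.20 CPM without glutamine and 23.5, 20.5, 11.8 and 10.03 CPM with glutamine. For these 3 genes the groups overlapped widely.

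Ccl24 and Ccl22 were rare in tolerant cells. Ccl24 had 22, 24, 18 and 13 counts with AKG, 16, 8, 4 and 1 counts without glutamine and 30, 28, 5 and 10 counts with glutamine. Like Ccl12, it was lowest without glutamine in every replicate number, and with the block the log2 changes were -1.14 ± 0.43 without against with glutamine (adjusted p = 0.0897 by edgeR) and 1.36 ± 0.42 with AKG against without glutamine (adjusted p = 0.0603). Ccl22 had 1 to 8 counts a library and was not tested there.

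Levels between genes were compared as CPM per kb of exon. In tolerant cells Ccl5 led with 1017 ± 456 with AKG, 729 ± 314 without glutamine and 698 ± 136 with glutamine (mean ± SD, n = 4), followed by Ccl9 with 276 ± 79.1 with AKG, 236 ± 78.5 without glutamine and 266 ± 27.1 with glutamine. In the stimulation table Ccl5 had 8.55 ± 0.516 with IL-4, 1988 ± 460.1 with LPS and 11.4 ± 1.48 untreated (mean ± SD, n = 2), and Ccl9 had 367 ± 15.8 with IL-4, 1679.97 ± 85.9 with LPS and 249 ± 6.87 untreated. The leading gene per length was therefore Ccl5 in tolerant and LPS-treated cells and Ccl9 in IL-4-treated and untreated cells.

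**Figure D4:**
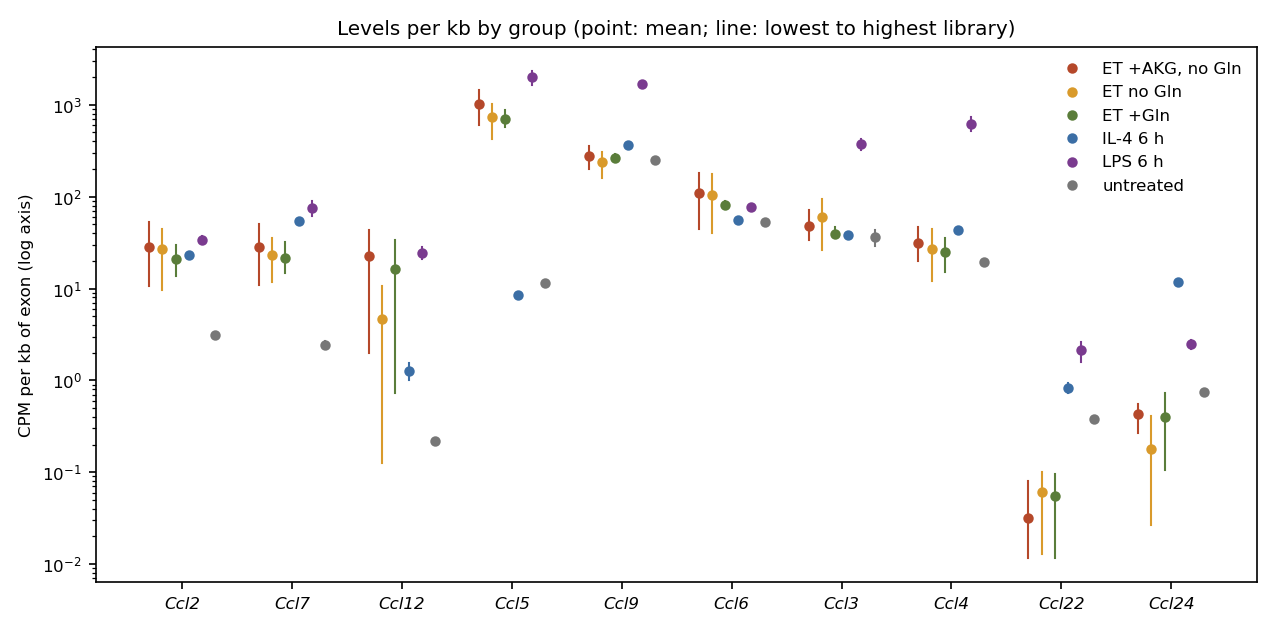
CPM per kb of exon (log axis) of the 10 genes in the 6 groups, with points at the means and lines from the lowest to the highest library. Ccl5 and Ccl9 stand highest with LPS, and Ccl22 and Ccl24 stand lowest in the tolerant groups.

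Set side by side, with no test across the separately scaled tables, the genes fell into different orders of groups. By group mean Ccl24 was highest with IL-4, and all the others except Ccl6 were highest with LPS. For Ccl3, Ccl4, Ccl5, Ccl7, Ccl9 and Ccl22 the LPS libraries lay above every other library of either table. For Ccl2 and Ccl12 some tolerant libraries lay above the LPS libraries. Ccl5 in tolerant cells lay above the IL-4 and untreated libraries and below the LPS libraries in every replicate. Ccl2 and Ccl7 in tolerant cells were likewise above the untreated libraries in every replicate. Ccl3 and Ccl9 in tolerant cells overlapped the untreated libraries. Ccl4 lay above the untreated libraries in replicates 1 and 2 of every tolerant group. In replicates 3 and 4 it lay above them with AKG and below them in the groups without and with glutamine. Ccl6 was highest in replicates 1 and 2 of the groups without glutamine, above the LPS libraries. Ccl22 and Ccl24 had fewer CPM in every tolerant library than in any untreated one.

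Of 14 other CC chemokine genes in each table, 3 were tested in tolerant and 4 in stimulated cells, and 9 in each table had at most 10 counts in every library. LPS raised Ccl8 (1.91 ± 0.17, adjusted p = 4.03e-04 by edgeR), the neighbour of Ccl12, and lowered Ccl28 (-2.31 ± 0.33) and Ccl27a (-2.10 ± 0.41). IL-4 raised Ccl28 (1.37 ± 0.21) and Ccl8 (0.68 ± 0.17, adjusted p = 0.0415). In tolerant cells Ccl8 averaged 48.1 CPM with AKG, 14.0 CPM without glutamine and 62.5 CPM with glutamine, and did not pass over all replicates (adjusted p = 0.526 without against with glutamine and 0.712 with AKG against without). With the block Ccl8 was lower without glutamine (-1.58, adjusted p = 0.0103) and higher with AKG than without glutamine (1.51, adjusted p = 0.0182), and Ccl25 was higher without glutamine (0.39, adjusted p = 0.0355). Ccl8 also differed between replicates 3 and 4 and replicates 1 and 2 by -4.57, next to -4.60 for Ccl12.

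Of 15 CC receptor genes, decoys included, 7 were tested in tolerant and 9 in stimulated cells. Ccr1, the receptor of Ccl3, Ccl5, Ccl6 and Ccl9, averaged 17.2 CPM with AKG, 36.4 CPM without glutamine and 16.5 CPM with glutamine. It was the 1 receptor called over all replicates, higher without against with glutamine (1.14 ± 0.12, adjusted p = 0.00180 by edgeR) and lower with AKG than without glutamine (-1.08 ± 0.12, adjusted p = 0.00573). With the block Ccr2, the receptor of Ccl2, Ccl7 and Ccl12, was lower without against with glutamine (-1.04, adjusted p = 0.00792) and higher with AKG than without glutamine (1.34, adjusted p = 0.00380). Ccrl2 was higher without against with glutamine with the block (1.13, adjusted p = 0.00812 by edgeR). Ccr3, the receptor of Ccl24, was higher with the block with AKG than without glutamine (1.19, adjusted p = 0.00483). Ccr1l1 was then higher with AKG than without glutamine (1.13, adjusted p = 0.0107) and than with glutamine (1.40, adjusted p = 0.00646). LPS raised 5 of 9 receptors, where 22.8% of all genes were higher, and lowered 1, where 29.4% were lower. The 3 raised with the smallest p were Ccr1 (2.60), Ccrl2 (3.15) and Ccr3 (2.31). IL-4 lowered Ccr2 (-1.75 ± 0.39, adjusted p = 0.0299). Against LPS, IL-4 left 6 of 9 lower, where 23.4% of all genes were lower.

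Across the 12 tolerant libraries, Ccl2 and Ccl7 moved most alike among the 10 genes (Pearson r of log2 CPM 0.976, and 0.831 once the means of the replicate subsets were taken out), and Ccl12 and Ccl24 kept their likeness after that step (0.915 and 0.908). Ccl12 and Ccl2 did not (0.799 and -0.22). Over the 6 stimulation libraries r was 0.998 for Ccl2 and Ccl7 and 0.999 for Ccl4 and Ccl9. These r values are descriptions over libraries that share groups and scaling.

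The likeness to single genes was computed with no such centring, so in the tolerant libraries it includes the difference between the replicate subsets. Among 9613 other genes in the tolerant libraries, those most like Ccl12 were Dennd1a (0.993), Fcgr4 (0.990) and Clec4a3 (0.989), and those most like Ccl5 were Pgap2 (0.982), Rnf19b (0.972) and Mapre2 (0.965). The nearest to Ccl4 were Dusp1 (0.977), Susd1 (0.965) and Zfp36 (0.965), and the nearest to Ccl3 were Spp1 (0.957), Rgs1 (0.953) and Arfgef3 (0.943). Ccl6 was most like Rac2 (0.981), Acsf2 (0.965) and Jup (0.964), and Ccl24 most like Cd300ld4 (0.966), Ints9 (0.954) and Lgmn (0.954). Among 9306 in the stimulation libraries, Ccl24 was most like Arg1 (0.999), Prkcd (0.999) and Pop4 (0.997), and Ccl5 was most like Socs3, Igtp and Ubash3b (0.9998, 0.9997 and 0.9997). Ccl2 and Ccl7 shared Id2 (0.998 and 0.999) and Tfec (0.998 and 0.997) among their nearest genes.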

How the data were processed

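Total RNA was made into stranded TruSeq libraries, per the labels. The authors deposited raw read counts per gene, and the submitters' processing notes name mm10, STAR and HTSeq. The sources used here state neither their versions nor how strand was counted. All groups of a table entered 1 model per table (edgeR 4.0.16 on R 4.3.3 with limma 3.58.1), with filterByExpr, TMM, the quasi-likelihood F test and Benjamini-Hochberg adjustment over all 12492 (tolerant) or 12506 (stimulation) genes in the main fits. Fits within replicates 1 and 2 covered 12353 genes and those within replicates 3 and 4 covered 12656. The tests of a difference between these subsets covered 12861. CPM values are TMM-normalised, and per kb values use GENCODE vM21 exon lengths. Residual degrees of freedom were 9 and 3, and 2 libraries a group limit precision in the stimulation table. The model code was tested on simulated counts. No library was a copy of a replicate: chi-square per degree of freedom was at least 7.68 over 21 pairs. In tolerant groups it was 7.68 to 9.78 between replicates 1 and 2 and 18.6 to 73.2 between replicates 3 and 4. Across these subsets it was 117 to 173. The labels do not say whether replicates within a subset are independent.

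Replicate numbers come from the labels. Deviations from group means were positively correlated for all 12 same-number pairs of the tolerant table (0.501 to 0.823), and as much for other numbers of the same subset (0.465 to 0.836), so the block mainly takes out the difference between replicates 1 and 2 and replicates 3 and 4, subsets seen in the data. In the stimulation table same-number libraries were alike between untreated and LPS (0.501) and unlike between IL-4 and untreated (-0.662) or IL-4 and LPS (-0.366). The main fit there had no pairing. Alternatives were RLE scaling, library totals, no filter, DESeq2 1.42.0, the 2 groups alone, the block, each subset and leaving out each library. All 10 genes are named, other family members and receptors only where called (the 3 with the smallest p), and like genes by the 3 highest correlations. Results for 1 receptor gene are not reported here. The members and lists were chosen with earlier results of these data known. Figures were drawn with matplotlib 3.10.9 in Python 3.11.15.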

Additional observations from a re-analysis of the deposited data

Results flagged for a closer look

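Ccl6 and Ccl9 responded differently in replicates 3 and 4 and in replicates 1 and 2 of the tolerant table by the edgeR test of the difference itself. For Ccl6 the effect in replicates 3 and 4 minus that in replicates 1 and 2 was -1.68 on the log2 scale without against with glutamine (-0.77 against 0.89, adjusted p = 0.00230) and -1.66 with AKG against with glutamine (-0.65 against 0.97, adjusted p = 0.00113). For Ccl9 it was -0.60 without against with glutamine (-0.50 against 0.068, adjusted p = 0.0212). The comparisons share the libraries with glutamine, and what sets these replicates apart was not tested.

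Ccl22 with AKG replicate 1 had 0.185 CPM (6 counts), far from the other 3 libraries of its group at 1 to 2 counts. It was the 1 such value among 30 sets of 4 libraries, and chance marks about 1 in 20.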

How the results depend on the processing

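In the stimulation table all 10 genes passed for LPS against untreated cells without each library in turn. Without IL-4 replicate 1 or 2 the IL-4 calls of Ccl4 and Ccl9 were lost, and those of Ccl6 against LPS (adjusted p = 0.0671 and 0.0631 by edgeR). Library totals turned Ccl6 to 0.015 and Ccl7 to 0.026 for IL-4 against LPS. Leaving out 1 library gave -0.12 to 0.37 for Ccl3 with IL-4, and 876 to 2500 called genes in that comparison. The replicate block left the 10 genes' counts of calls at 6, 10 and 9, with 1874, 6033 and 6117 genes called in all for IL-4 against untreated, LPS against untreated and IL-4 against LPS. Crossed pairing of the IL-4 libraries, chosen after seeing the data, gave 3988 genes (8 of the set) against untreated and 8058 (9 of the set) against LPS.

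In the tolerant table the counts of all genes moved with the setting, and the cause was not tested. Without against with glutamine 597 genes were called, and 2724 with the replicate block, 3559 within replicates 1 and 2, 1656 within replicates 3 and 4, 1283 by DESeq2, 267 with the 2 groups alone (where Ccl24 gave no value) and 254 to 481 without 1 library. For AKG against no glutamine 192 were called, and 1945, 2906, 644, 663, 68 and 28 to 122 under the same settings and 106 with no filter. Library totals moved the share of those calls that were higher to 34.2%, beside 44.8%. For AKG against glutamine 0 were called by edgeR (919 at an unadjusted p under 0.05), and 884 with the block, 1432 and 782 within the subsets, 236 by DESeq2 and 4 with library totals. Of the chemokine set the block called 1, 1 and 0, replicates 1 and 2 called 6, 5 and 5, and replicates 3 and 4 called 2, 2 and 1 in these 3 comparisons.

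Directions of log2 fold changes that did not pass over all replicates also turned. Without against with glutamine the block gave -0.027 for Ccl4, -0.043 for Ccl5 and -0.024 for Ccl6. Replicates 1 and 2 gave 0.068 for Ccl9, and replicates 3 and 4 gave -0.24 for Ccl2, -0.21 for Ccl3, -0.41 for Ccl4, -0.35 for Ccl5, -0.77 for Ccl6 and -0.049 for Ccl7. For AKG against no glutamine replicates 3 and 4 gave -0.13 for Ccl2, 0.29 for Ccl3 and -0.33 for Ccl7. For AKG against glutamine replicates 1 and 2 gave -0.27 for Ccl24, and replicates 3 and 4 gave -0.37 for Ccl2, -0.65 for Ccl6, -0.38 for Ccl7 and -0.19 for Ccl9. Leaving out 1 library gave, without against with glutamine, -0.25 to 0.35 for Ccl4, -0.15 to 0.27 for Ccl5, -0.029 to 0.63 for Ccl6 and -0.21 to 0.33 for Ccl7. With AKG against without glutamine it gave -0.41 to 0.44 for Ccl2, -0.051 to 0.57 for Ccl4, -0.26 to 0.45 for Ccl6 and -0.12 to 0.60 for Ccl7. With AKG against with glutamine it gave -0.034 to 0.74 for Ccl2, -0.045 to 0.66 for Ccl7, -0.080 to 0.20 for Ccl9, -0.041 to 1.10 for Ccl12 and -0.22 to 0.52 for Ccl24. Ccl12 without glutamine kept its direction without each library in both comparisons (-2.60 to -1.19 against with glutamine, and 1.78 to 3.07 for AKG over without glutamine). Depth limits Ccl12 in tolerant replicates 3 and 4 and in untreated and IL-4-treated cells, Ccl24 in tolerant cells and Ccl22 in both tables, and the fold changes of Ccl12 over untreated cells rest on 5 counts in each untreated library.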
